A study of Caenorhabditis elegans with 2 samples.

Results

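The 8 genes described here encode histone acetyltransferases of Caenorhabditis elegans: cbp-1, cbp-2, cbp-3, mys-1, mys-2, mys-4, hat-1 and pcaf-1. They are 8 of the 19973 protein-coding genes annotated on the 6 nuclear chromosomes (Ensembl release 115, assembly WBcel235, which is build ce11), and were taken by name. The signal of the cbp-1 promoter peak and its rank were known when the genes were chosen, so the values below describe the genes and no value was tested. Chromatin was immunoprecipitated, per the sample description with an antibody against GFP, from whole, mixed-sex young adults aged 72 hours, synchronised by bleaching and starvation as first-stage larvae. All animals were of strain OP214, which carries unc-119(ed3) on chromosome III and the transgene wgIs214, a fusion of K12H6.12 to a C-terminal GFP and FLAG tag. There was 1 group, with biological replicates 2 and 3. Every tissue contributed to each sample, and no library without the tag was used here, so binding by K12H6.12 itself was not tested. The labels describe the precipitation as anti-GFP but enter K12H6.12 in their antibody field; the description is followed here, and the entry was not resolved.

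Histone acetyltransferases move an acetyl group from acetyl-CoA to lysines of histone tails, which loosens chromatin and makes docking sites for bromodomain proteins. The enzymes fall into families. CBP and p300 proteins, represented by CBP-1, are large coactivators that sequence-specific transcription factors recruit to enhancers and promoters, and cbp-1 is essential for tissue differentiation in the worm embryo. MYST proteins (the mys genes) are catalytic subunits of complexes such as NuA4, PCAF-1 belongs to the GCN5 and PCAF family, and HAT-1 is the type B enzyme that acetylates newly made histone H4. Deacetylases reverse the mark.

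Each peak carries the signal value that the authors' caller gave it. Signals have no stated scaling and read depth is unknown, so levels of signal and ranks (1 is the highest signal) are compared within a list. Between replicates, signals are set side by side only as ratios, each read against the same ratio over all IDR peaks. The lists held 30000 peaks for both replicates pooled, 27073 for replicate 2 and 30000 for replicate 3, all at a relaxed threshold. A list thresholded by the irreproducible discovery rate (IDR), a measure of how repeatably a peak ranks in both replicates, held 2268 peaks. Its entries were the 2268 strongest of the pooled list, from a signal of 1112 down to 97.88, and the next pooled peak stood at 97.87. Peaks of both replicates covered 97.8% of its summits, so not every IDR summit was listed in both. A gene's window ran from 2000 bp upstream of its annotated 5′ end to its 3′ end, and its promoter window from 1000 bp upstream to 200 bp downstream of the 5′ end.

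An IDR summit lay in the windows of 3 of the 8 genes, cbp-1, hat-1 and mys-1, where 11.4% of all coding genes had one. In each of the 3 it was a single summit, upstream of the gene and inside the promoter window, which held an IDR summit in 7.10% of all coding genes. These 3 genes stood far apart in the order of signal: among the 1418 coding genes with a promoter summit, cbp-1 ranked 11, hat-1 196 and mys-1 1313. None of the 8 had an IDR summit inside the gene body. Window length differs between genes and bears on these counts. The 4991 coding genes with windows of at least 5637 bp had an IDR summit in 19.0%. Of the 8 acetyltransferase genes, 5 were among them, and of these cbp-1 alone had an IDR summit. The share was 7.56% for windows of 3216 to 4027 bp, the range of hat-1 (4001 bp). For windows of 4028 to 5636 bp, the range of mys-1 (5118 bp), it was 10.9%.

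**Figure D1:**
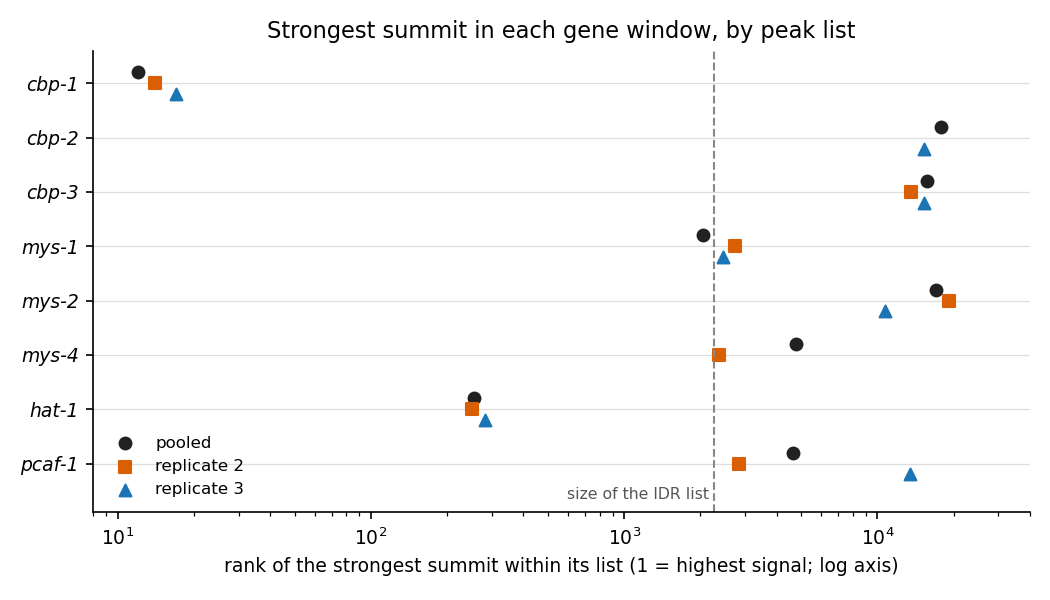
Rank of the strongest summit in each gene's window (x axis, log scale, 1 is the highest signal) for the pooled list and for each replicate, with the size of the IDR list, 2268, as a dashed line. Only cbp-1 and hat-1 lie left of the line in the pooled list and in both replicates, mys-1 lies left of it in the pooled list alone, and a missing symbol means that the list had no summit in the window.

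The cbp-1 peak was among the strongest in every list. Its signal was 677 in the pooled list (rank 12), 379 in replicate 2 (rank 14) and 296 in replicate 3 (rank 17), and 11 IDR peaks were stronger. The summits of the lists fell within 4 bp of each other, at position 9765667 of chromosome III in the pooled list and in replicate 3. The gene (WBGene00000366) spans 9766509 to 9774825 on the plus strand, so the summit stood 842 bp upstream, in intergenic sequence. Its 4 annotated transcripts begin within 7 bp of each other, and none begins nearer to the summit. Among the 1418 genes with a promoter summit, 6.14% had their strongest farther upstream, and the median was 267 bp. Both figures cover promoter windows alone, so summits more than 1000 bp upstream were left out. Many worm mRNAs receive a spliced leader in place of their original 5′ end, so an annotated 5′ end can lie downstream of the place where transcription starts. Whether this holds for cbp-1 was not tested.

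The nearest annotated 5′ end to the cbp-1 summit was that of R10E11.10, a non-coding RNA gene on the opposite strand, 558 bp away, and the summit lay upstream of both genes. Another non-coding RNA gene, R10E11.12, begins 662 bp before the summit on the plus strand and ends 519 bp before it. No other coding gene had this summit in its promoter window.

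The sequences around the 3 IDR summits are shown because these carry the strongest signal at each gene. Each holds 300 bp of build ce11 read on the strand of the gene, with the summit at base 151 for cbp-1 and at base 150 for the other two. Capitals mark matches on either strand to any of 5 short sequences, and no matches overlapped. These were the GA repeat GAGAGA, the E-box core CACGTG, the GATA-type sequence TGATAA, the cyclic AMP response element TGACGTCA and the TATA sequence TATAAA. The windows are chrIII:9765517-9765816 (plus strand) for cbp-1, chrIII:10407349-10407648 (minus strand) for hat-1 and chrV:7084773-7085072 (minus strand) for mys-1.
cbp-1: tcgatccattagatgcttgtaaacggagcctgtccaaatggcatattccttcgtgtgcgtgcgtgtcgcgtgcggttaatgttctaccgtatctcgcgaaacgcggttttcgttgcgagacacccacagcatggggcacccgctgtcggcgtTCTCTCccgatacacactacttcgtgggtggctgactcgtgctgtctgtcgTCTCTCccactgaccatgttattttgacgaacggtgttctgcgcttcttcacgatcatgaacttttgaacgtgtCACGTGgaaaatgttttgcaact
hat-1: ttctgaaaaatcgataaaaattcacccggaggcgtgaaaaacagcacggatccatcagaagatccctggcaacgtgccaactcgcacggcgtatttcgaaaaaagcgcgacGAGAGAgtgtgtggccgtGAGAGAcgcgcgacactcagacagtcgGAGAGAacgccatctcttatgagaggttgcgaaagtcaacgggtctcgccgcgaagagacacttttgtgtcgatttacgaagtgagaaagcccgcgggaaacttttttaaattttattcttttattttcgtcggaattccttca
mys-1: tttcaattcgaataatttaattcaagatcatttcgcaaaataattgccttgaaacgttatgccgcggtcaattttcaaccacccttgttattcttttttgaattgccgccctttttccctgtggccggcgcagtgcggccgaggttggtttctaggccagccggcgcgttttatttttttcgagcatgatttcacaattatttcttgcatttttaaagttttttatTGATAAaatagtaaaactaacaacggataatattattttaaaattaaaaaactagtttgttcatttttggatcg

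GAGAGA, which reads TCTCTC on the other strand, occurred in the windows of both strong peaks. The cbp-1 window held it 2 times, at bases 153 to 158 and 204 to 209, both on the minus strand, and the nearer match began 2 bp after the summit. The hat-1 window held it 3 times, at bases 112 to 117, 130 to 135 and 157 to 162, with 7 bp between the nearest match and the summit. The mys-1 window had no GAGAGA. It occurred in 53.8% of the 300 bp windows around all 2268 IDR summits and in 21.8% of 300 bp windows over the 5′ ends of all coding genes (250 bp upstream to 50 bp downstream). CACGTG occurred once in the cbp-1 window and in 10.3% of IDR windows, against 5.82% of the coding promoters. TGATAA occurred once in the mys-1 window and in 14.1% of IDR windows, against 30.2% of the coding promoters. TGACGTCA, the element after which CREB and its partner CBP are named, was in none of the 3 windows, and 2.12% of IDR windows and 1.51% of coding promoters held it. TATAAA was also in none of them, with shares of 19.97% of IDR windows and 37.9% of coding promoters. These matches describe letters in a window and were not tested as binding sites.

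Base composition differed between the windows. Guanine and cytosine made up 51.7% of the cbp-1 window, 48.0% of the hat-1 window and 34.7% of the mys-1 window. The median over IDR windows was 44.0% (interquartile range 38.7 to 48.3) and over coding promoters 34.3% (31.3 to 38.0). Thus cbp-1 lay above the upper quartile of IDR windows, hat-1 just below it, and mys-1 below the lower quartile, close to an ordinary coding promoter. All 31-base words in each of the 3 windows were unique in the genome.

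Across the rest of cbp-1 the relaxed lists held weaker summits, none of them in the IDR list. Inside the gene body there were 6 summits in the pooled list with signals of 26.8 to 74.96, 6 in replicate 2 with 19.1 to 40.1 and 8 in replicate 3 with 15.2 to 31.9. The strongest of them lay 8075 bp downstream of the 5′ end, in the 3′ UTR (pooled signal 74.96, rank 3615, outside the IDR list). Its pooled −log10 q-value was 2.29, and 3847 of the 30000 pooled peaks had one above 2. Peaks of both replicates covered this summit, at rank 4465 (−log10 q-value 1.53) in replicate 2 and 5988 (1.12) in replicate 3. A summit 718 bp downstream, in a coding exon, had a signal of 54.7 in the pooled list (rank 6703), with ranks of 4588 in replicate 2 and 16549 in replicate 3. Upstream, replicate 2 alone held an extra summit 639 bp before the gene with a signal of 30.1, on the flank of the strong peak. A weak pooled summit 1670 bp upstream, in an exon of R10E11.10, had a signal of 30.7 (rank 21045). A replicate 2 peak covered it (rank 23355), and no replicate 3 peak did. Of the 8 pooled summits in the window, 4 were covered by a peak of both replicates.

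**Figure D2:**
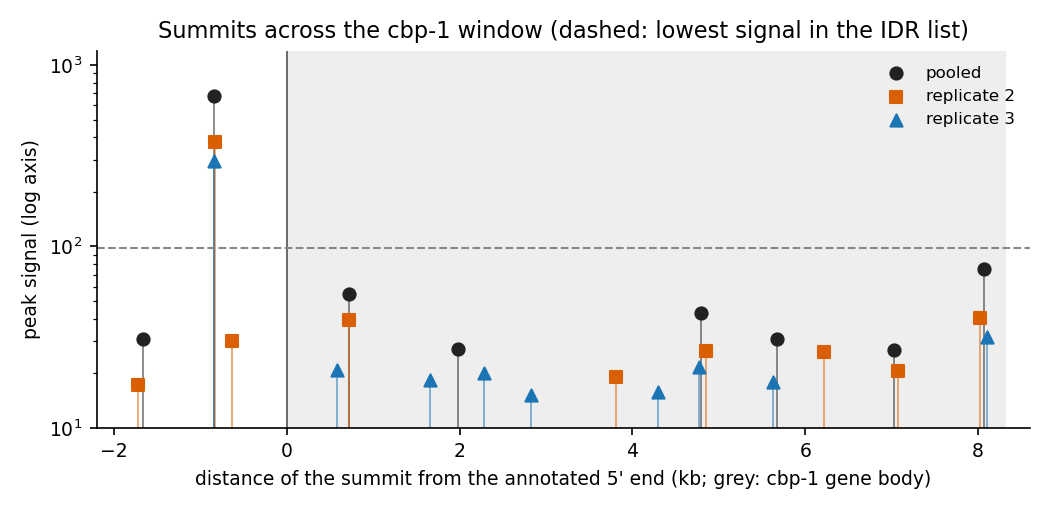
Signal (y axis, log scale) of every summit in the cbp-1 window against its distance from the annotated 5′ end (x axis, kb), by list, with the gene body in grey and the lowest IDR signal, 97.88, dashed. The line applies to the pooled list alone, where the summit 842 bp upstream (677) stands above it. Every other pooled summit lies below it, at 74.96 or less. The replicate summits within 4 bp of that place had signals of 379 in replicate 2 and 296 in replicate 3, and are read within their own lists.

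By a rule that takes the coding genes with replicate signals nearest to those of cbp-1 (distance in log2 signal over the 2 replicates), the most alike were epn-1, sor-1, hsr-9 and rps-19. Their strongest promoter summits had distances of 0.13 for epn-1 and sor-1 and 0.18 for hsr-9 and rps-19, which share a summit. At epn-1, an epsin gene of endocytosis, the signals were 347 in replicate 2 and 290 in replicate 3. At sor-1, a Polycomb-like repressor gene, they were 372 in replicate 2 and 270.3 in replicate 3. At the summit shared by hsr-9, a relative of the DNA damage protein 53BP1, and rps-19, a ribosomal protein gene, they were 341 in replicate 2 and 275 in replicate 3. This likeness is in peak height alone.

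The hat-1 peak was weaker than that of cbp-1 in every list. Its signal was 283 in the pooled list (rank 255), 160.2 in replicate 2 (rank 250) and 127 in replicate 3 (rank 282). The gene (WBGene00044069) lies on the minus strand of chromosome III from 10405248 to 10407248, and the summit at 10407499 stood 251 bp upstream of its 5′ end, close to the median of 267 bp. The peak and all of hat-1 except the tip of its 3′ end lie inside an intron of the longer transcript of M03C11.3, a coding gene on the plus strand. A shorter M03C11.3 transcript begins 717 bp from the summit, facing away from hat-1, so the summit lay between 2 divergent transcript starts and nearer to hat-1. The replicate 2 summit was 38 bp and the replicate 3 summit 8 bp from the pooled one. Replicate 2 had a further, weaker summit 422 bp upstream (signal 39.2, rank 4643). The replicate 3 peak was 96 bp wide, where 99.1% of that list's peaks had the same width of 384 bp and 14 were under 100 bp. At the other end of the gene, in its 3′ UTR, the relaxed lists held weak summits with signals of 33.2 in the pooled list, 22.7 in replicate 2 and 21.6 in replicate 3. These also lay in an intron of M03C11.3, which begins at 10405070. The pooled summit was at 10405362 and the replicate 3 summit at 10405393, both shortly after that start.

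The mys-1 peak lay near the lower edge of the IDR list. MYS-1 is the worm counterpart of Tip60, the MYST enzyme of the NuA4 complex. Its signal was 103 in the pooled list (rank 2051), 52.1 in replicate 2 (rank 2742) and 46.8 in replicate 3 (rank 2450), and 217 IDR peaks were weaker. In each replicate alone this peak fell outside the 2268 strongest, so with either replicate left out the count of 3 genes became 2. The share of coding genes with a summit in the gene window was then 10.95% from replicate 2 and 11.4% from replicate 3. The gene (WBGene00007029) spans 7081545 to 7084662 on the minus strand of chromosome V, and the summit at 7084923 stood 261 bp upstream. Summits of both replicates lay within 12 bp of it. It was the only summit in the mys-1 window in any list. The summit also lay 146 bp past the 3′ end of linc-117, a long non-coding RNA gene on the same strand, and 1033 bp upstream of the divergent coding gene VC5.2, just outside that gene's promoter window.

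**Figure D3:**
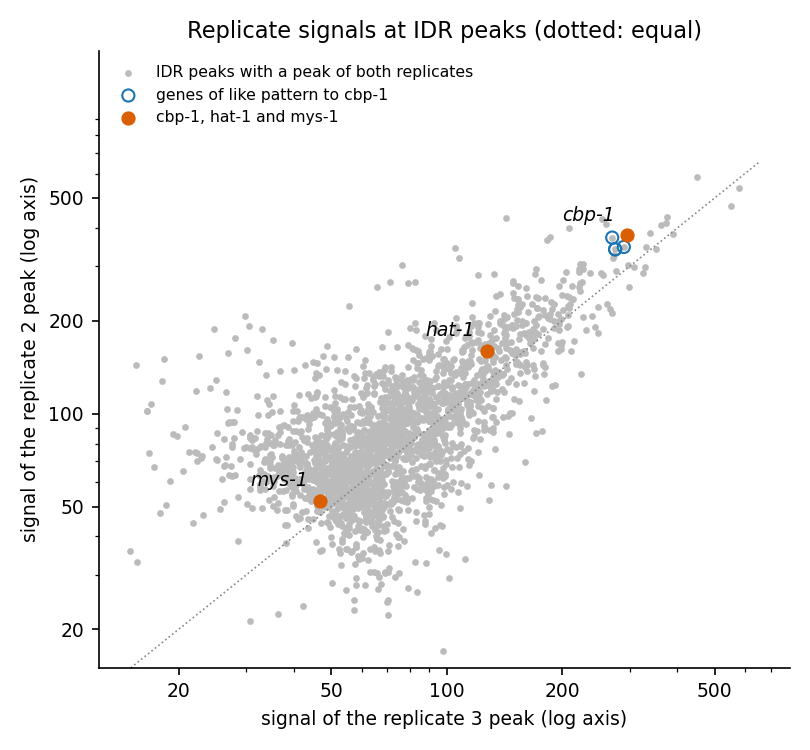
Signal of the replicate 2 peak (y axis) against that of the replicate 3 peak (x axis), both on log scales, at the 2218 IDR peaks with a peak of both replicates over the summit (grey), with cbp-1, hat-1 and mys-1 filled and the genes most like cbp-1 circled. The filled points lie at 379 and 296 for cbp-1, 160.2 and 127 for hat-1, and 52.1 and 46.8 for mys-1, all just above the dotted line of equal signal, which the scaling of each list can shift.

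The ratio of replicate 2 to replicate 3 signal was 1.28 at cbp-1, 1.26 at hat-1 and 1.11 at mys-1. Over the 2218 IDR peaks with a peak of both replicates over the summit, the median ratio was 1.17 and the interquartile range 0.927 to 1.49. On the log2 scale the ratios were 0.36, 0.33 and 0.15 beside a median of 0.23 and an SD over peaks of 0.62. The ratios at these genes lay inside the interquartile range over IDR peaks. That spread includes neighbouring summits that share the same replicate peak.

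The other 5 genes had no IDR summit in the window. For mys-4 and pcaf-1 the replicates differed. At mys-4, a further MYST gene on chromosome I (8333082 to 8336727, plus strand), a summit 28 bp after the 5′ end, in the 5′ UTR, had a pooled signal of 64.4 (rank 4786). In replicate 2 this summit had a signal of 56.2 (rank 2378), more than the 52.1 of mys-1 in the same list. Its −log10 q-value there was 2.72, beside 2.63 for mys-1, and in the pooled list 1.44. A further replicate 2 summit 1407 bp upstream of mys-4, in a coding exon of C34B7.1, had a signal of 15.7 (rank 26918). Replicate 3 had no summit anywhere in the mys-4 window. At pcaf-1 (chromosome I, 3516450 to 3523418, plus strand) a summit lay 30 bp upstream. It had a pooled signal of 65.5 (rank 4631, −log10 q-value 1.52) and a replicate 2 signal of 51.1 (rank 2848, −log10 q-value 2.58). No replicate 3 peak covered it, and the nearest replicate 3 summit in the window was 902 bp upstream with a signal of 23.0 (rank 13503). Of the 1500 pooled peaks ranked 4001 to 5500, 83.9% were covered in both replicates, 10% in replicate 2 alone and 5.93% in replicate 3 alone, so both genes stood in the 10%.

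An IDR summit also lay just outside the pcaf-1 window, 2042 bp upstream of the gene, with a pooled signal of 101 (rank 2131). Peaks of both replicates covered it, at rank 2428 in replicate 2 and 2793 in replicate 3. The edge of this peak reached to 1815 bp upstream, so that counting any base of a peak in place of its summit gave 4 genes instead of 3. Counted that way, the share of all coding genes was 12.3%, against 11.4% by summit. For the remaining genes without an IDR summit in the window, the nearest one was 5354 bp upstream of mys-2 and 20395 bp upstream of mys-4. For cbp-3 and cbp-2 it was the same summit, inside another gene, 8414 bp upstream of cbp-3 and 17595 bp upstream of cbp-2.

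The 3 genes cbp-2, cbp-3 and mys-2 had only weak summits. Their windows held 12 distinct summits over the pooled and replicate lists, with ranks of 10749 to 29158 and a −log10 q-value of at most 0.54. The best rank, 10749, was that of a replicate 3 summit 1595 bp upstream of mys-2, in a coding exon of fld-1. Upstream of cbp-3, replicate 2 summits 1487 and 1270 bp away lay in a 5′ UTR of F40F12.9. A replicate 3 summit 5173 bp after the 5′ end of cbp-3 lay in a coding exon of F40F12.3. At mys-2, a MYST gene related to the fly enzyme MOF (chromosome I, 14118751 to 14127202, plus strand), a pooled summit 265 bp after the 5′ end had a signal of 34.7 (rank 17016). It was covered in both replicates, at rank 23869 in replicate 2 and 16937 in replicate 3. At cbp-3 (chromosome III, 9913993 to 9924768, plus strand) a pooled summit 1119 bp after the 5′ end, in a coding exon, had a signal of 36.2 (rank 15745) and was covered in replicate 2 alone.

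The smaller CBP-like gene cbp-2 (chromosome III, 9923174 to 9924800, plus strand) overlaps the last part of the longest cbp-3 transcript on the same strand and ends just beyond it, so the summit in this overlap counts for both genes. That summit, in a coding exon of cbp-2 and in an intron of cbp-3, had a pooled signal of 33.8 (rank 17790). Replicate 3 covered it, at rank 15298 and 149 bp away, and replicate 2 did not. Only 52.6% of the 31-base words around it were unique in the genome, with 72.8% over the whole of cbp-2 and 70.3% over cbp-3. Around the cbp-3 summit 1119 bp after the 5′ end, 85.6% were unique. Uniqueness was not examined upstream of cbp-3. In cbp-1, 99.4% of words were unique, and it shared 8 words with cbp-2 and 46 with cbp-3 out of 8287. Whether reads that fit several copies were kept is not given in the sources used here, so weak or missing peaks at cbp-2 and cbp-3 cannot be told apart from a loss of such reads. The words that cbp-1 shares are few.

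**Figure D4:**
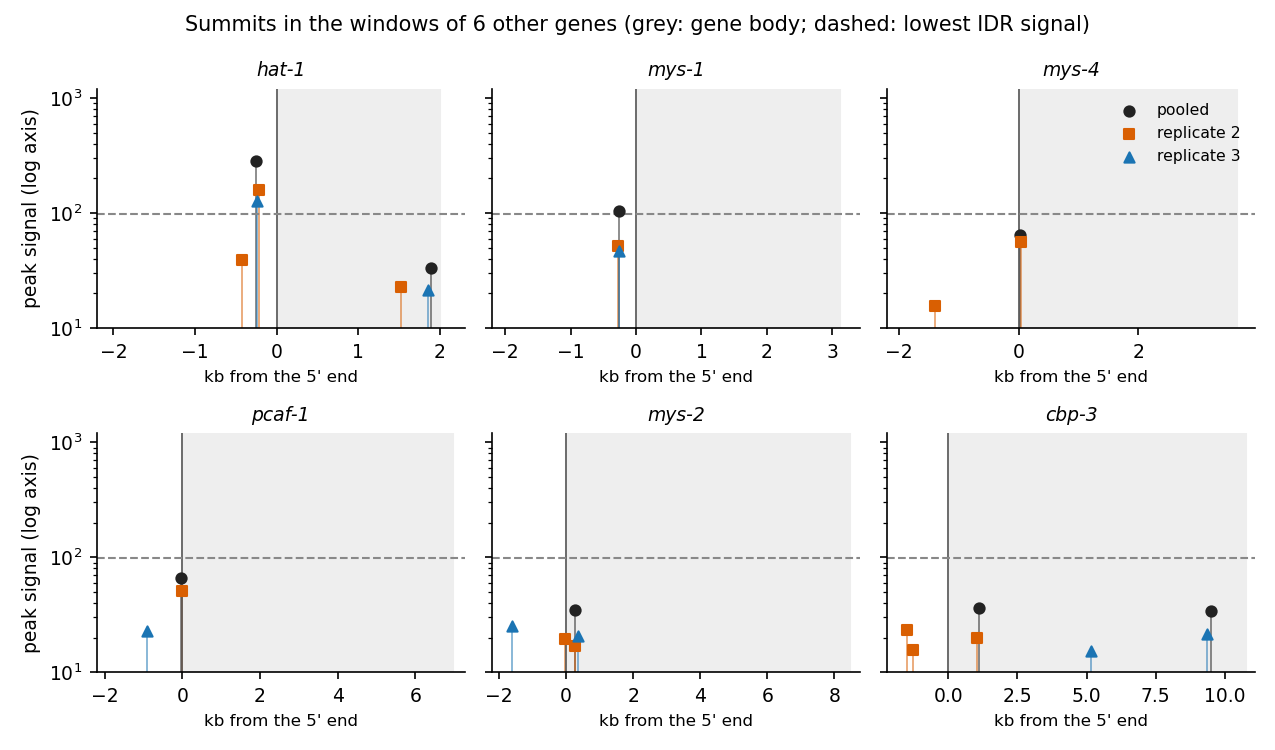
Signal (y axis, log scale) of every summit in the windows of hat-1, mys-1, mys-4, pcaf-1, mys-2 and cbp-3 against its distance from the 5′ end (x axis, kb), by list, with gene bodies in grey and the lowest IDR signal, 97.88, dashed. Pooled summits cross the line at hat-1 (283) and mys-1 (103) alone, and at mys-4 and pcaf-1 the summit at the 5′ end has a pooled and a replicate 2 symbol but none for replicate 3.

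The relaxed lists hold so many peaks that a summit in a window says little. In the pooled list all 8 genes had a summit in the window, beside 61.7% of all coding genes, and 5 had one in the promoter window, beside 35.3%. In replicate 2 the counts were 7 in the window (59.4% of coding genes) and 6 in the promoter window (33.3%). In replicate 3 they were 7 in the window (67.0%) and 5 in the promoter window (36.3%). The density of summits in the acetyltransferase windows had a median of 0.186 per kb in the pooled list beside 0.247 over all coding genes, 0.215 beside 0.215 in replicate 2, and 0.193 beside 0.272 in replicate 3. Of the 16 distinct pooled summits in these windows, 12 were covered in replicate 2, 10 in replicate 3 and 7 in both.

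Other genes of the histone acetylation machinery were taken by name in 4 lists, of which 40 of 42 names were found among the coding genes (mys-3 and flt-1 were not). An IDR promoter summit was present at 14 of the 40 (35.0%), beside 3 of the 8 acetyltransferase genes and 7.10% of all coding genes. Expression was not measured here, and its part in this share was not tested.

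Subunits and cofactors of acetyltransferase complexes had one at 6 of 13 genes. The strongest were epc-1, a relative of Enhancer of Polycomb, a NuA4 subunit in other species (signal 343, rank 146), and ekl-4, a DMAP1 relative (328, rank 170). Both were stronger than hat-1 in the pooled list and weaker than cbp-1. The others were lin-49, a bromodomain and PHD finger protein gene (156), the chromodomain gene mrg-1 (149.5), and the AAA+ ATPase genes ruvb-2 (113) and ruvb-1 (106).

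Deacetylases had promoter summits at 2 of 12 genes, hda-11 (signal 128) and hda-6 (114.5). The sirtuin gene sir-2.2 had an IDR summit in its window outside the promoter. Partners of deacetylases had promoter summits at 3 of 9 genes: lin-53, which encodes a histone-binding RbAp48 protein (signal 289), spr-1, a CoREST relative (195), and lin-40, of the NuRD complex (106). These summits lay 222 bp upstream of the 5′ end at lin-53, but 958 bp at spr-1 and 864 bp at lin-40. The partner genes egl-27 and rba-1, had an IDR summit in the window outside the promoter. Bromodomain genes, whose products read acetylated lysines, had promoter summits at 3 of 6 genes, and bet-1, also of the BET family, had an IDR summit in its window outside the promoter. Those with a promoter summit were bet-2, of the BET family (signal 360, rank 124), pbrm-1, a polybromo subunit of chromatin remodellers (116), and nurf-1, of the NURF remodeller (101). Their strongest promoter summits lay 558 bp upstream at bet-2, 963 bp at pbrm-1 and 500 bp at nurf-1.

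At some of these genes the ranks in the replicates lay far apart. The lin-40 summit ranked 5784 in replicate 2 and 1174 in replicate 3, and the pbrm-1 summit 894 in replicate 2 and 8966 in replicate 3. The epc-1 summit ranked 155 in replicate 2 and 178 in replicate 3, and the ekl-4 summit 213 in replicate 2 and 123 in replicate 3.

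**Figure D5:**
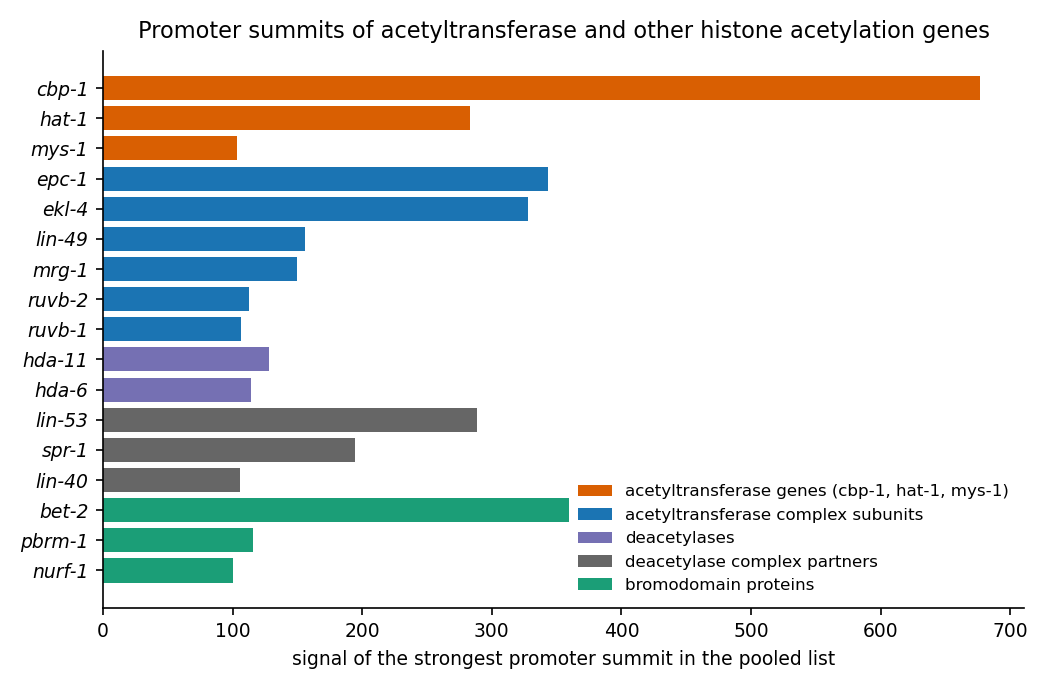
Signal in the pooled list (x axis) of the strongest IDR promoter summit of cbp-1, hat-1 and mys-1 and of the 14 other histone acetylation genes that had one, grouped by list. The bar of cbp-1 reaches 677, and those of bet-2 at 360, epc-1 at 343, ekl-4 at 328 and lin-53 at 289 also exceed hat-1 at 283.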

How the data were processed

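ChIP-seq peaks of 2 biological replicates of 1 group (labelled replicate 2 and 3) were taken as deposited. Per the file headers, which here means the description deposited with each sample, peaks were called on build ce11 against 1 control alignment, for each replicate and for both pooled, and the IDR list was made from all of them. The sources used here do not give the caller, the aligner, the read filters or the IDR threshold. The deposited signal is a score of unstated scale, and the deposited significance is a −log10 q-value. The control alignment was not used here. Peak lists hold no read totals, so depth is unknown.

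Summits (peak start plus offset, counted from 1) were assigned to genes of Ensembl release 115 with Python 3.11.15 and pandas 2.3.3. All peak ends lay within the WBcel235 chromosomes. Ranks followed signal within a list. A replicate covered a summit if one of its peaks lay over it, and the peak with the nearest summit was used. Counting was checked on simulated peaks. The genes, gene lists, short sequences and windows were chosen with earlier results of these data known. Named were all 8 genes, genes whose bodies held one of their summits, and genes near their IDR summits. Genes of the 4 lists with a promoter summit and the 4 coding genes nearest to cbp-1 in replicate signals were also named. Outside this rule, sir-2.2, egl-27, rba-1 and bet-1 (an IDR summit in the window alone) and the names not found were named after their values were seen. So were sqv-3, abts-1, ndua-2 and Y47G6A.18, near other IDR summits. Alternatives were other windows, any overlap, the 1134 strongest IDR peaks, each replicate alone and repeated intervals counted once. The ranks of hat-1 and mys-1 under these were added after seeing the data.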

Additional observations from a re-analysis of the deposited data

How the results depend on the processing

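With 1000 bp upstream in place of 2000, the same 3 genes had an IDR summit, beside 9.12% of coding genes. The same 3 had one in promoter windows from the 5′ end of any annotated transcript, beside 7.79%. Any overlap of a peak added pcaf-1 to the gene windows, beside 12.3% of coding genes. In gene bodies alone 0 of the 8 genes and 2.82% of coding genes had one, since all 3 summits lie upstream. The promoter window of 500 bp upstream to 100 bp downstream held those of hat-1 and mys-1 and not that of cbp-1, beside 5.35% of coding genes. It held a summit at 11 of the 40 other histone acetylation genes, against 14 in the wider promoter window. Among the 1134 strongest IDR peaks, cbp-1 and hat-1 kept theirs, with 6.09% of coding genes having a summit in the gene window and 3.84% in the promoter window, and 7 of the 40 other histone acetylation genes had a promoter summit; fewer peaks enter this count by construction. From the 2268 strongest peaks of either replicate alone, cbp-1 and hat-1 kept a promoter summit, mys-1 did not, and 11 to 12 of the other 40 genes had one. The share of coding genes with a promoter summit was then 6.83% from replicate 3 and 7.04% from replicate 2. The rank of the cbp-1 summit was 14 to 17 in the replicates alone, against 12 in the pooled list, and 11 with repeated intervals counted once. That of hat-1 was 250 to 282 and that of mys-1 2450 to 2742. No paired analysis was possible because there is 1 group and no test was made. Unknown depth means that a missing replicate 3 peak at mys-4 or pcaf-1 is a summit not listed, not a measured absence.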

Other observations

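Within 50 kb on either side of the 5′ end there were 2 IDR summits around cbp-1, 3 each around hat-1 and mys-1, 5 around mys-4, 2 each around mys-2 and cbp-3, and 1 each around pcaf-1 and cbp-2, where the median over all coding genes was 2 (interquartile range 1 to 3). The only other IDR summit near cbp-1 was 14294 bp away, upstream of sqv-3, with a signal of 169.9 (rank 824) beside 677 at cbp-1. The region of mys-4 held the most, none of them in the mys-4 window, the strongest (signal 258, rank 321) 27532 bp away and nearest to abts-1. The IDR summit 5354 bp upstream of mys-2, nearest to ndua-2, ranked 318 in replicate 2 and 5738 in replicate 3.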
